A study of Mus musculus with 83 samples.

Results

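The collagen genes of the mouse colon were followed over adult life in bulk RNA-seq of 83 male mice. The members were the protein-coding rows of the count table whose symbol is Col, a number, a and a number, which gave 44 genes of 37764 in the table and of 19326 that code for protein. The colons came from C57BL/6J/Ukj mice that the labels describe as kept for ageing and for which they name no treatment or transgene, with 16 mice in each of the 3-, 9- and 15-month groups, 17 in the 24-month group and 18 in the 28-month group. RNA with a polyA tail was taken from the proximal section of the whole colon wall, so epithelium, connective tissue, vessels and muscle were measured together, and fewer cells of a type and less RNA per cell cannot be told apart. Libraries were made in 3 preparations, each with 4 to 7 mice of every age.

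Collagens are proteins of 3 chains wound into a triple helix. Fibrillar collagens form the tensile fibres of the submucosa and muscle layers, collagen IV forms the sheet of the basement membrane under the epithelium and around vessels and muscle cells, and collagen VI forms beaded filaments between the basement membrane and the fibres. Fibril-associated collagens (FACIT) coat the fibres, multiplexins sit at the basement membrane zone, and transmembrane collagens stay anchored in the cell membrane.

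The depth of the libraries ran from 23026370 to 75838290 counted read pairs, of which the collagen genes took 0.0980 to 0.232%. The labelled tissue showed its defining markers in every mouse. Epcam, an epithelial adhesion protein, lay between 1049 and 1654 CPM (counts scaled to a fixed size of the normalized library), Myh11, the smooth muscle myosin, between 216 and 1305 CPM, and Pdgfra, a fibroblast receptor, between 46.5 and 104 CPM. The transcriptome of 1 mouse of 3 months and 1 of 28 months correlated less with their age groups than those of the others, and 1 mouse of 15 months, replicate 16, had the lowest levels of Col4a1 and Col4a2 of all mice. Counts of called members without these mice are given where they differ by more than 1.5 times or where a call was lost.

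A few chains made up most of the collagen RNA. On the TPM scale, which corrects counts for gene length and then for library size, Col6a1 had a mean of 115 ± 18.8 (SD, n = 83), Col3a1 of 114 ± 23.2, Col1a1 of 67.6 ± 14.8, Col4a1 of 64.9 ± 10.95, Col4a2 of 55.5 ± 9.85 and Col6a2 of 50.5 ± 8.73. Col6a1 and Col3a1 differed by less than the spread between mice. This order depends on the lengths used, those of all annotated exons merged, which were 4380 bases for Col6a1, 9816 for Col3a1 and 12426 for Col1a2. Without the correction for length the mean was 369 CPM for Col3a1, 169 for Col1a2, 166 for Col6a1 and 146 for Col1a1. The first 3 of these genes held 42.5% of the summed collagen TPM and all 6 held 67.0%. A mean of at least 1 TPM was reached by 29 members. At the other end, Col2a1, Col6a6, Col9a1, Col10a1 and Col19a1 stayed too low for testing, with mean levels of at most 0.1001 TPM, and Col10a1, a cartilage collagen, had no read in 58 of the 83 mice. The summed TPM of all members had a median of 726 in the mice of 3 months (441 to 892), 675 in those of 9 months (557 to 832), 683 in those of 15 months (347 to 767), 782 in those of 24 months (552 to 875) and 706 in those of 28 months (457 to 859). The 5 ages overlapped throughout.

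Of the 39 members tested, 17 differed between 28 and 3 months at an adjusted p below 0.1 (edgeR quasi-likelihood test, Benjamini-Hochberg adjustment over all 18325 genes tested), 9 higher and 8 lower at 28 months. This share was not above the background in this fit: 49.4% of all genes tested were called in this comparison, 23.5% higher and 25.9% lower. That depended on the setting. The share was above the background without a filter on low counts (17 of 44 members beside 9469 of 37764 genes). It was also above it with scores of smooth muscle and fibroblast markers as covariates (25 of 39 beside 9307 of 18325). The median log2 fold change was 0.02 over the members and -0.01 over all genes tested. The members thus did not move one way, and the largest changes were a rise of Col6a5 and a fall of Col8a1. The sign of the change was the same in all 3 library preparations for 15 of the 17 called members. The exceptions were Col17a1, which differed by -0.01 in preparation 3, and Col20a1, which differed by 0.07 in preparation 1. The split of calls over all genes depended on the scaling: with library totals alone, 5238 genes were higher and 3648 lower, against 4299 and 4747 with TMM factors, while the members split into 9 higher and 7 lower.

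**Figure D1:**
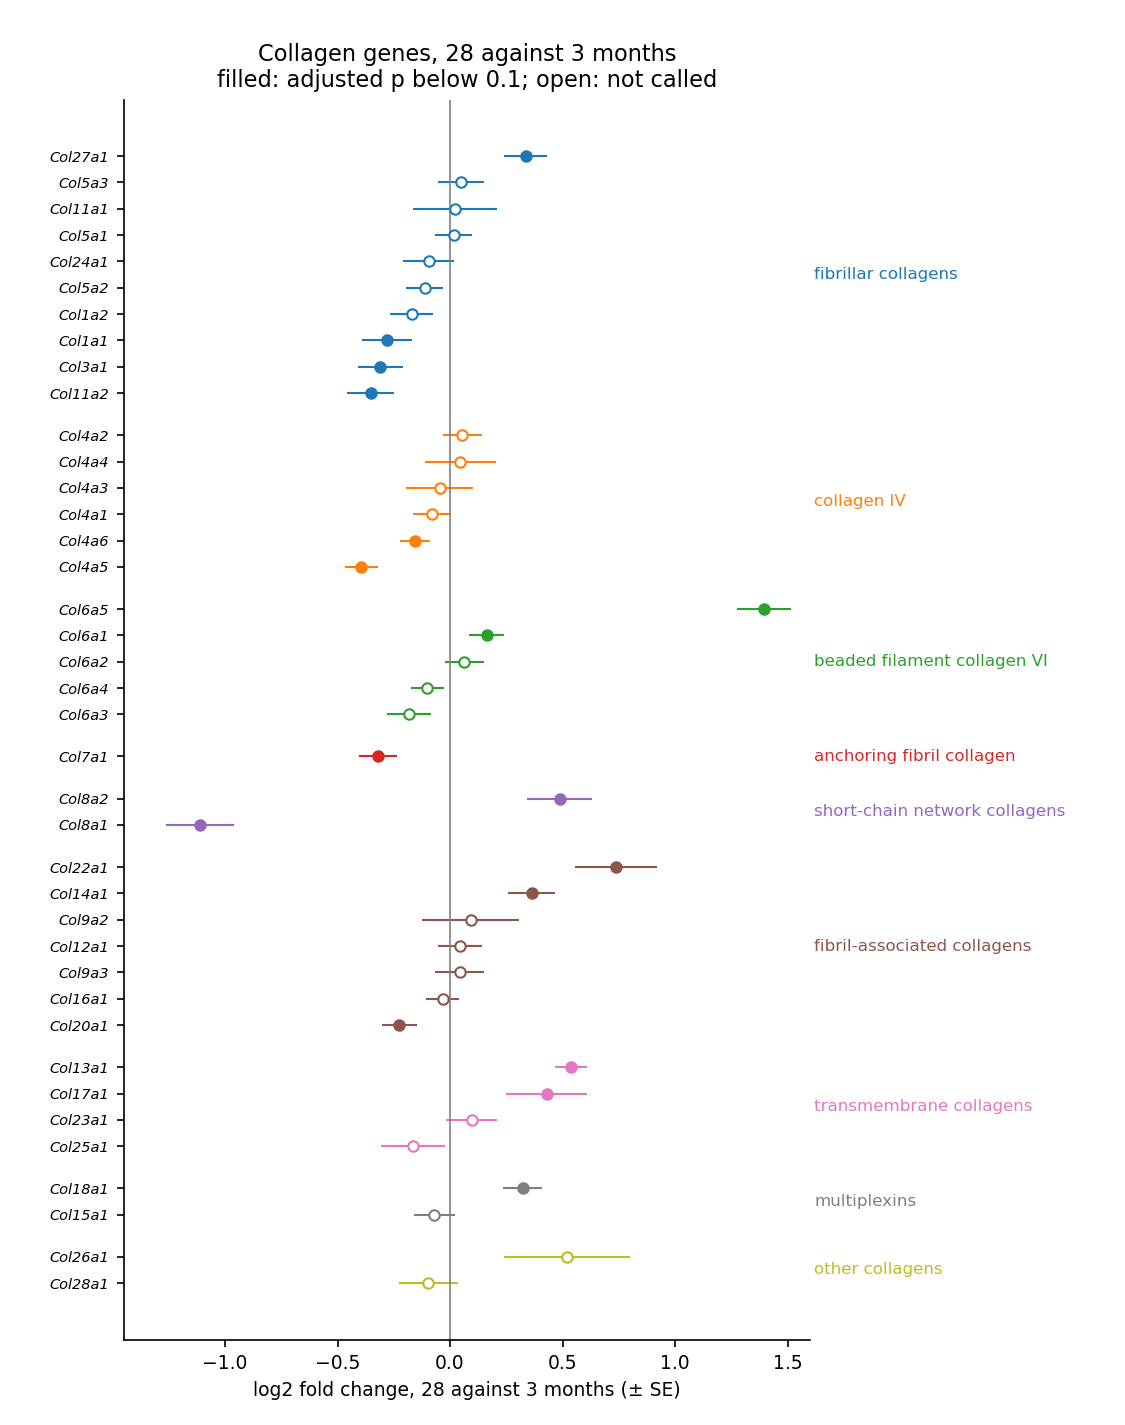
Log2 fold change of each of the 39 tested collagen genes at 28 against 3 months, with bars of 1 SE, grouped by class. Filled points have an adjusted p below 0.1 (edgeR) and open points do not. Col6a5 lies far to the right at 1.40 and Col8a1 far to the left at -1.11, while most other members lie within 0.5 of 0.

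Col6a5 encodes the alpha5 chain of collagen VI, which can take the place of the alpha3 chain in the trimer with the alpha1 and alpha2 chains. The gene (ENSMUSG00000091345) lies on chromosome 9 from 105856078 to 105960643 on the minus strand (GRCm38). At 3 months its level was 3.45 to 7.49 CPM with a median of 6.11, at 9 months 7.57 to 14.7 with a median of 9.90, at 15 months 8.80 to 22.9 with a median of 13.4, at 24 months 12.3 to 27.5 with a median of 17.3, and at 28 months 8.43 to 21.7 with a median of 15.2. Every mouse of 9 months and of 28 months was above every mouse of 3 months, so these groups did not overlap. Col6a5 rose 2.63-fold between 3 and 28 months (log2 fold change 1.40 ± 0.12 SE, edgeR adjusted p = 7.41e-17). It was already 1.81-fold higher at 9 than at 3 months (0.86 ± 0.12, edgeR adjusted p = 2.34e-07) and 1.30-fold higher at 24 than at 15 months (0.38 ± 0.12, edgeR adjusted p = 0.0282). Between 15 and 9 months the difference was 0.42 with an edgeR adjusted p of 0.126, and between 28 and 24 months no call was made. Its course departed from a straight line in age (edgeR adjusted p = 4.07e-06). These comparisons share mice, since the 3-month group serves as reference in both of the first comparisons. The 28 against 3 months value was 1.25, 1.52 and 1.47 within preparations 1, 2 and 3.

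The other chains of collagen VI moved little by comparison. Col6a1, the alpha1 chain found in every collagen VI trimer, had 111 to 192 CPM with a median of 160 at 3 months and 121 to 210 CPM with a median of 176 at 28 months, and the groups overlapped. It was 1.12-fold higher at 28 months (0.16 ± 0.08, edgeR adjusted p = 0.0807), a call that was lost in 2 of 11 alternatives: without the filter on low counts, and with smooth muscle and fibroblast scores as covariates. Col6a2, the alpha2 chain, had a log2 fold change of 0.06 ± 0.09 (edgeR adjusted p = 0.583) and Col6a3, the alpha3 chain, of -0.18 ± 0.10 (edgeR adjusted p = 0.126). The proportion of the chains within the mice did change. The log2 ratio of Col6a3 to Col6a1 counts averaged -0.88 ± 0.12 (SD, n = 16) over the youngest mice and -1.25 ± 0.21 (SD, n = 18) over the oldest. All 18 mice of 28 months lay below the 3-month median, and the difference adjusted for preparation was -0.36 (two-sided permutation test within preparations, adjusted p = 0.00012 over 12 ratio tests). Its unadjusted p, 1e-05, is the smallest that 100000 resamples can give. The ratio of Col6a2 to Col6a1 also fell, by 0.10 on the log2 scale (permutation test, adjusted p = 0.00212), in 17 of 18 mice against the 3-month median. Between 24 and 15 months, Col6a2 to Col6a1 was lower by a difference of -0.04 (permutation test, adjusted p = 0.0617), in 14 of 17 mice against the 15-month median, and Col6a3 to Col6a1 differed by -0.04 (permutation test, adjusted p = 0.369).

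To show the sequence in front of the member that rose most, the 150 bases upstream of the RefSeq start of Col6a5 are given 5′ to 3′ on the minus strand (GRCm38.p6, chr9:105960644-105960793). These bases overlap no annotated exon. Capitals mark a GC box (GGGCGG), the only match in this window to the 3 short motifs searched on both strands, which were this one, the TATA box (TATAAA) and the CCAAT box (CCAAT).
Col6a5: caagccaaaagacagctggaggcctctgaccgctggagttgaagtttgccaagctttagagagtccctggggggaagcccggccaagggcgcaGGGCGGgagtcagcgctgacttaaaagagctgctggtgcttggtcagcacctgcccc
Promoter windows were found for 35 of the 44 members. Over the 250 bases upstream, a GC box was present in 32.7% of all 32851 windows, a CCAAT box in 33.8% and a TATA box in 12.4%, and in 22, 13 and 5 of the 38 windows of members.

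The 2 tested chains of collagen VIII went in opposite directions. Col8a1 and Col8a2 encode the short chains of a hexagonal network known from vessel walls and from the membrane under the corneal endothelium. Col8a1 (ENSMUSG00000068196, chromosome 16 from 57624258 to 57754737, minus strand, GRCm38) had 25.8 to 79.9 CPM with a median of 42.3 at 3 months, medians of 32.6, 25.8 and 20.2 at 9, 15 and 24 months, and 10.7 to 28.3 CPM with a median of 19.5 at 28 months. All 18 mice of 28 months were below the 3-month median and 15 were below every mouse of 3 months. Col8a1 was 2.16-fold lower at 28 months (-1.11 ± 0.15, edgeR adjusted p = 5.74e-09). No neighbouring pair of ages was called, apart from 9 against 3 months with smooth muscle and fibroblast scores as covariates (-0.40, edgeR adjusted p = 0.0880), and the departure from a straight line was not called (edgeR adjusted p = 0.543). Col8a2 had 0.936 to 3.88 CPM with a median of 2.37 at 3 months and 1.64 to 5.05 CPM with a median of 3.59 at 28 months. The groups overlapped, with 16 of 18 older mice above the 3-month median, and Col8a2 was 1.40-fold higher at 28 months (0.49 ± 0.14, edgeR adjusted p = 0.00445). Within preparations, Col8a1 changed by -0.85, -1.23 and -1.24 and Col8a2 by 0.49, 0.57 and 0.45. The upstream bases of Col8a1, the member that fell most, hold 3 GC boxes, marked in capitals as read on the opposite strand (CCGCCC), and no TATA or CCAAT box (GRCm38.p6, chr16:57754738-57754887, minus strand, 150 bases before the RefSeq start).
Col8a1: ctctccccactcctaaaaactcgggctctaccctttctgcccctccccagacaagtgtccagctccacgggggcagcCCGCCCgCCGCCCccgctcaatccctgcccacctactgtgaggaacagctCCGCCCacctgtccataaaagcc

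**Figure D2:**
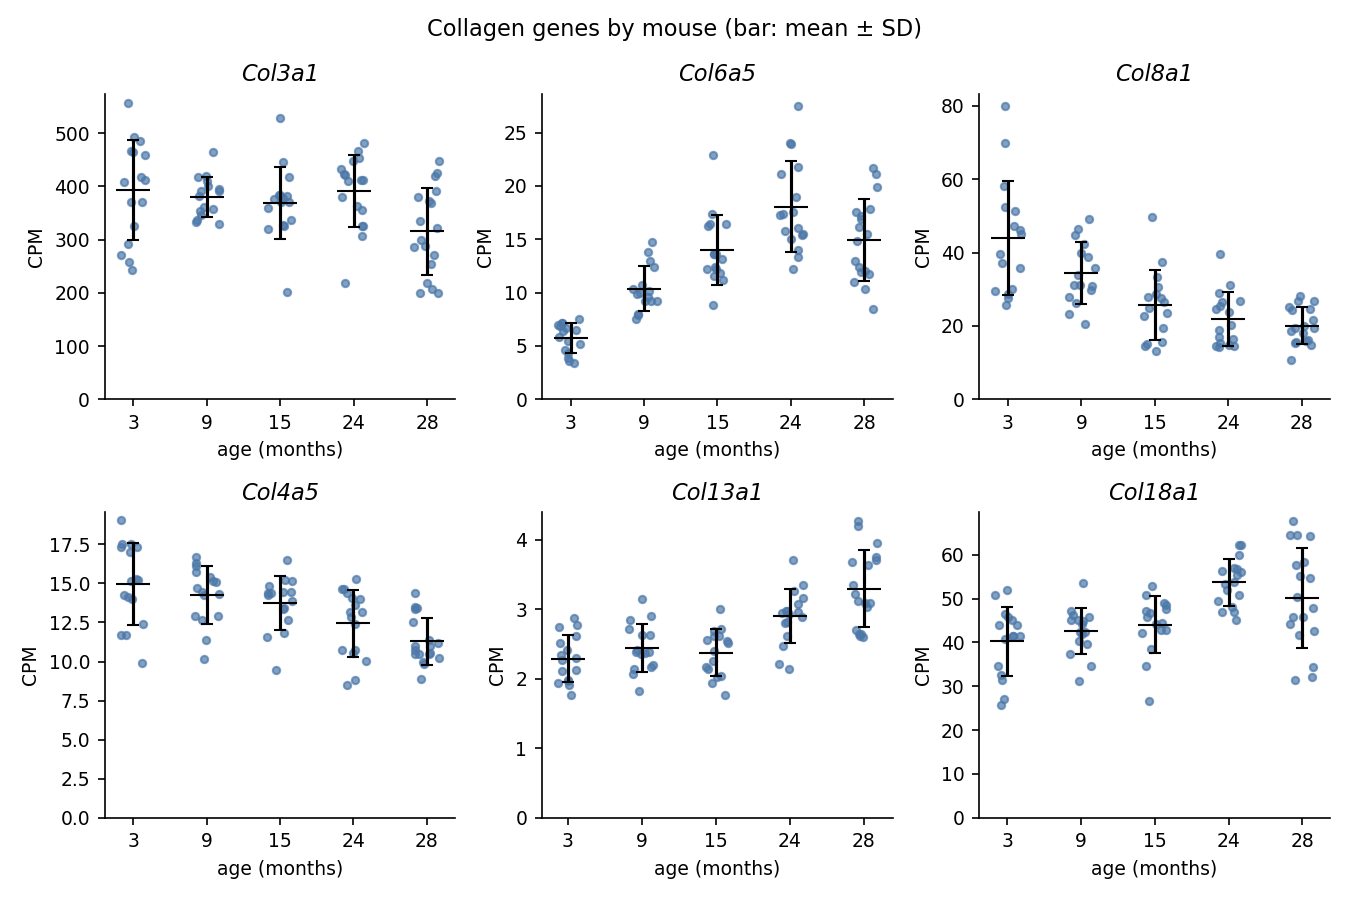
CPM of 6 collagen genes in each mouse (points) by age in months, with the mean and SD of each age as bars. Col6a5 of the 9-month and 28-month mice lies wholly above that of the 3-month mice, Col8a1 falls from a median of 42.3 to 19.5 CPM, and the ages of Col3a1 overlap.

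Among the fibrillar collagens, 4 of the 10 tested members were called at 28 against 3 months, 1 higher and 3 lower, with a median log2 fold change of -0.10. This was 40% of the class, beside the 49.4% of all genes tested that were called. Col3a1, which forms the thin fibres of hollow organs, had 242 to 556 CPM with a median of 410 at 3 months and 199 to 448 CPM with a median of 311 at 28 months. The groups overlapped, with 15 of 18 older mice below the 3-month median, and Col3a1 was 1.24-fold lower (-0.31 ± 0.10, edgeR adjusted p = 0.00965). Col1a1, the alpha1 chain of collagen I, had 90.5 to 219 CPM with a median of 166 at 3 months and 70.7 to 176 CPM with a median of 133 at 28 months, and was 1.21-fold lower (-0.28 ± 0.11, edgeR adjusted p = 0.0325). In both genes the fall stood out against the 24-month mice as well: Col3a1 was 1.24-fold lower (edgeR adjusted p = 0.0444) and Col1a1 1.25-fold lower (edgeR adjusted p = 0.0553) at 28 than at 24 months. Col1a2, the partner of Col1a1, had a log2 fold change of -0.17 ± 0.10 at 28 against 3 months (edgeR adjusted p = 0.150). The ratio of Col1a2 to Col1a1 was higher at 28 than at 3 months by 0.12 on the log2 scale (permutation test, adjusted p = 0.006, 16 of 18 mice above the 3-month median) and lower at 24 than at 15 months by a difference of -0.06 (permutation test, adjusted p = 0.015). The ratio of Col3a1 to Col1a1 differed by -0.02 at 28 against 3 months (permutation test, adjusted p = 0.448) and by -0.06 at 24 against 15 months (permutation test, adjusted p = 0.212).

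The minor fibrillar chains went in both directions. Col27a1, known from cartilage, had 9.35 to 23.5 CPM with a median of 18.3 at 3 months and 13.1 to 30.3 CPM with a median of 22.2 at 28 months, and was 1.26-fold higher with overlapping groups (0.34 ± 0.10, edgeR adjusted p = 0.00297). Col11a2, a fibril-nucleating chain, was 1.28-fold lower (-0.35 ± 0.10, edgeR adjusted p = 0.00432), from a median of 3.09 to 2.54 CPM, with 17 of 18 older mice below the 3-month median. Col5a3, a chain of collagen V, was not called at 28 against 3 months (0.05 ± 0.10, edgeR adjusted p = 0.739) and was 1.27-fold higher at 24 than at 15 months (0.35 ± 0.10, edgeR adjusted p = 0.0269), where 11 of 17 mice were above every mouse of 15 months. With smooth muscle and fibroblast scores as covariates, the 28 against 3 months value of Col5a3 turned to -0.17 and was called. The ratio of Col5a2 to Col5a1 was lower at 28 than at 3 months, by a difference of -0.11 on the log2 scale (permutation test, adjusted p = 0.0144), and the difference at 24 against 15 months was -0.05 (permutation test, adjusted p = 0.265).

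Col3a1, the fibrillar member with the highest level, is shown with the 150 bases before its RefSeq start (GRCm38.p6, chr1:45311388-45311537, plus strand), which overlap no annotated exon. Capitals mark a match to the TATA box motif (TATAAA) whose first base lies at -117 from the start site. The search took matches at any distance, and a function of this one was not tested.
Col3a1: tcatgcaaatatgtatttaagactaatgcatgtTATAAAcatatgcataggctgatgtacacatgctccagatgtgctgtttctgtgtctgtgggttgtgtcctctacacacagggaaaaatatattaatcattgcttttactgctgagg

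Collagen IV has 6 chains whose genes lie in pairs, head to head on opposite strands. In the annotation the start sites of Col4a1 and Col4a2 on chromosome 8 overlap by 22 bases, those of Col4a4 and Col4a3 on chromosome 1 lie 71 bases apart, and those of Col4a6 and Col4a5 on chromosome X lie 1308 bases apart. The chains of the common alpha1 and alpha2 network were not called at 28 against 3 months. Col4a1 had medians of 169 CPM (106 to 201) at 3 months and 159 CPM (105 to 189) at 28 months, a log2 fold change of -0.08 ± 0.08 (edgeR adjusted p = 0.456), and Col4a2 one of 0.06 ± 0.09 (edgeR adjusted p = 0.636). With smooth muscle and fibroblast scores as covariates Col4a1 was called, at -0.23 (edgeR adjusted p = 0.00346). Their ratio still shifted: Col4a2 to Col4a1 was higher at 28 than at 3 months by 0.14 on the log2 scale, in 17 of 18 mice against the 3-month median (permutation test, adjusted p = 0.0003), and by 0.04 at 24 against 15 months (permutation test, adjusted p = 0.0205). Col4a5, a chain of the rarer networks known from smooth muscle and kidney, had 9.90 to 19.0 CPM with a median of 15.2 at 3 months, medians of 14.6, 14.3 and 13.2 at 9, 15 and 24 months, and 8.90 to 14.4 CPM with a median of 10.9 at 28 months. All 18 mice of 28 months were below the 3-month median although the ranges overlapped, and Col4a5 was 1.31-fold lower (-0.39 ± 0.07, edgeR adjusted p = 7.22e-06). Its neighbour Col4a6 was 1.11-fold lower (-0.15 ± 0.07, edgeR adjusted p = 0.0472), a call lost with library totals as the only scaling. Col4a3 and Col4a4 stayed at means of 0.193 and 0.245 TPM and were called in no comparison. The bases between the starts of this last pair are given on the strand of Col4a3 (GRCm38.p6, chr1:82586850-82586920) as the piece that both genes share, and none of the 3 motifs is in them.
Col4a4 and Col4a3: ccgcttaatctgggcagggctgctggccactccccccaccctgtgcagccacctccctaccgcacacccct

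The remaining classes of the basement membrane zone went in different directions. Col18a1, the multiplexin from which endostatin is cut, had 25.7 to 52.0 CPM with a median of 41.4 at 3 months and 31.5 to 67.7 CPM with a median of 49.2 at 28 months. It was 1.25-fold higher (0.32 ± 0.09, edgeR adjusted p = 0.00145) with overlapping groups. Col15a1, the other multiplexin, was not called over the whole span (-0.07 ± 0.09, edgeR adjusted p = 0.561), except with smooth muscle and fibroblast scores as covariates, where its value was -0.20 (edgeR adjusted p = 0.0348). It was 1.19-fold higher at 24 than at 15 months (edgeR adjusted p = 0.0722), a call lost in 3 of 11 alternatives, and 1.23-fold lower at 28 than at 24 months (edgeR adjusted p = 0.0261), and it departed from a straight line (edgeR adjusted p = 0.0583). Without replicate 16 of the 15-month group the first of these calls was lost. Col7a1, which forms the anchoring fibrils, fell from a median of 2.99 to 2.40 CPM between 3 and 28 months, with 16 of 18 older mice below the 3-month median (-0.32 ± 0.08, edgeR adjusted p = 0.00147).

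Of the 7 tested FACIT members, 2 were higher and 1 was lower at 28 than at 3 months, 42.9% called beside 49.4% of all genes tested. Col14a1, which binds along collagen fibres, had 10.5 to 25.9 CPM with a median of 17.0 at 3 months and 15.0 to 30.3 CPM with a median of 20.8 at 28 months, and was 1.29-fold higher with overlapping groups (0.36 ± 0.10, edgeR adjusted p = 0.00349). Col22a1, known from tissue junctions of muscle, rose from a median of 0.383 to 0.727 CPM, 1.67-fold (0.74 ± 0.18, edgeR adjusted p = 0.000636), and is a low gene with a mean of 0.180 TPM. Col20a1 was 1.17-fold lower (-0.22 ± 0.08, edgeR adjusted p = 0.0135). Of the 4 transmembrane collagens, 2 were higher, which is 50% beside the same 49.4%. Col13a1, known from the neuromuscular junction, had 1.76 to 2.87 CPM with a median of 2.29 at 3 months, medians of 2.39, 2.45 and 2.95 at 9, 15 and 24 months, and 2.60 to 4.27 CPM with a median of 3.17 at 28 months. All 18 mice of 28 months were above the 3-month median and 13 were above every mouse of 3 months. Col13a1 was 1.45-fold higher (0.54 ± 0.07, edgeR adjusted p = 3.54e-09) and departed from a straight line (edgeR adjusted p = 0.0572). Col17a1, the collagen of epithelial hemidesmosomes, was 1.35-fold higher (0.43 ± 0.18, edgeR adjusted p = 0.0476) at a mean of 0.124 TPM, a call lost in the fit of these ages alone. Col23a1 was called in none of the pairs of ages tested (28 against 3 months 0.10 ± 0.11, edgeR adjusted p = 0.511). With the score covariates it was called lower at 9 than at 3 months (-0.31, edgeR adjusted p = 0.00489) and higher at 28 than at 24 months (0.23, edgeR adjusted p = 0.0203).

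Col26a1, a small collagen of little known function, and Col28a1, known from peripheral nerve, formed the last class. Col26a1 was low, with a mean of 0.102 TPM and no read in 1 mouse. Its median was 0.144 CPM in the 3-month mice, 0.281 in the 9-month mice, 0.388 in the 15-month mice, 0.350 in the 24-month mice and 0.191 in the 28-month mice. It was 1.78-fold higher at 9 than at 3 months (0.83 ± 0.28, edgeR adjusted p = 0.0647), a call lost in 2 of 10 alternatives, and 1.67-fold lower at 28 than at 24 months (-0.74 ± 0.24, edgeR adjusted p = 0.0451). Its course departed from a straight line (edgeR adjusted p = 0.00105). Col28a1 was called in no comparison.

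**Figure D3:**
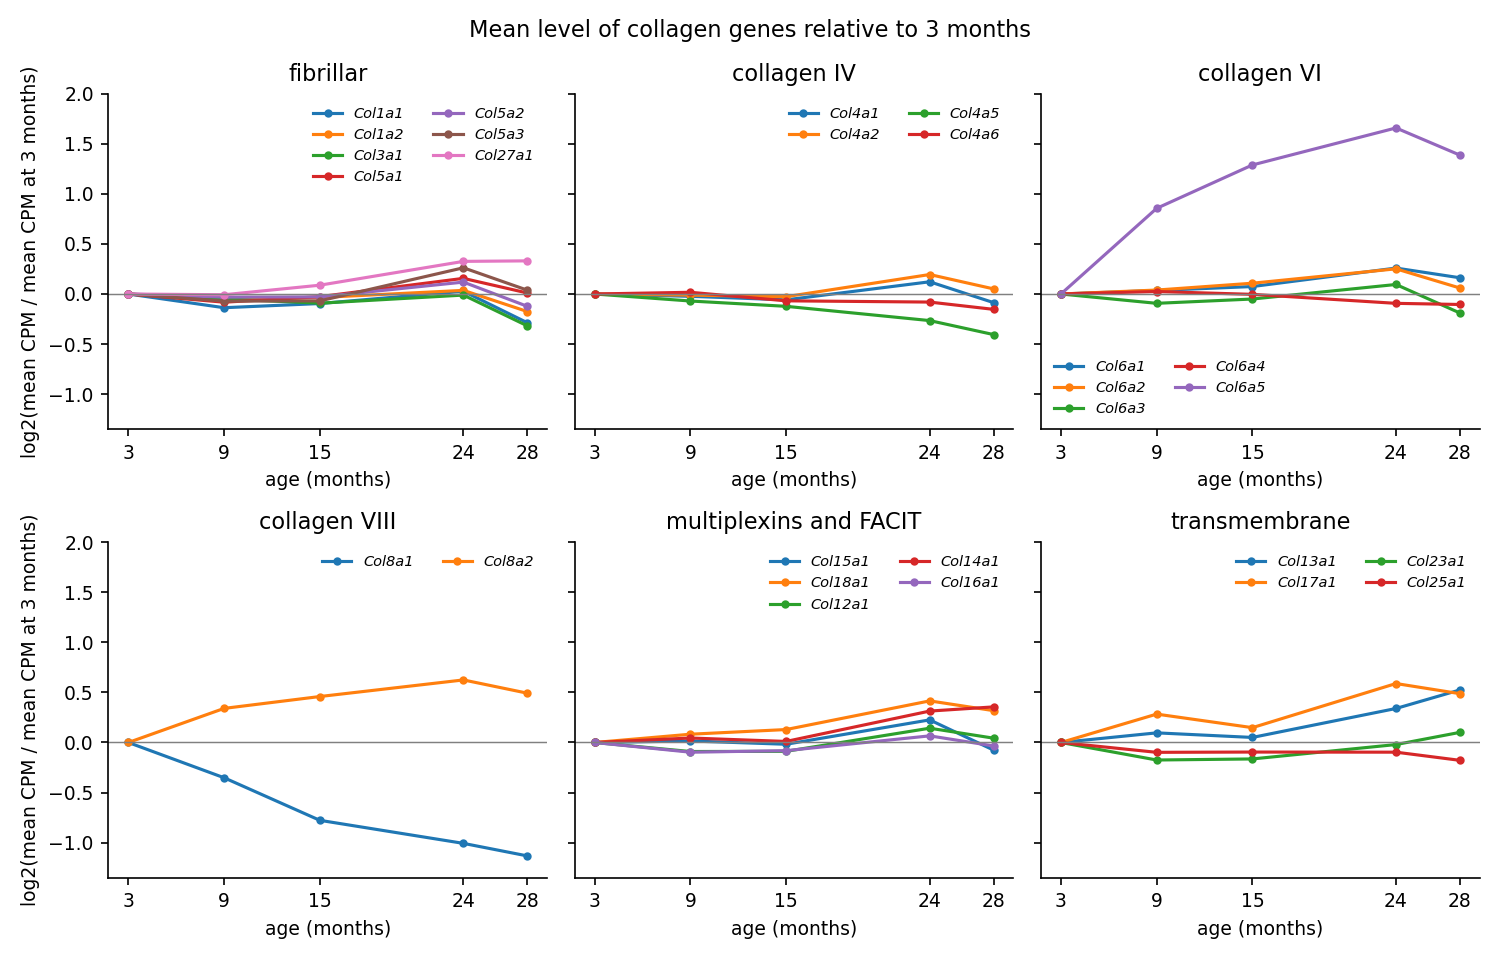
Mean CPM of collagen genes at each age divided by the mean at 3 months, on a log2 scale, in 6 panels by class. Col6a5 reaches its highest mean at 24 months, Col8a1 lies lower at each later age, and most lines of the fibrillar and collagen VI panels drop between 24 and 28 months.

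Between 24 and 15 months every call among the members went the same way. Of 39 members, 9 were called and all 9 were higher at 24 months, whereas 13.5% of all genes tested were called, 6.28% higher and 7.24% lower. The members called were Col4a2, Col5a3, Col6a5, Col13a1, Col14a1, Col15a1, Col17a1, Col18a1 and Col27a1, from 6 of the 9 classes. The median log2 fold change was 0.16 over the members and 0.00 over all genes tested. Log2 fold changes of the called genes ran from 0.23 for Col4a2 to 0.46 for Col17a1, and each had the same sign in all 3 preparations. The best supported were Col13a1 (0.31 ± 0.07, edgeR adjusted p = 0.00436) and Col18a1 (0.29 ± 0.09, edgeR adjusted p = 0.0243), and all 17 mice of 24 months were above the 15-month median of Col18a1. The calls of Col4a2 and Col17a1 were lost in 4 alternatives and that of Col27a1 in 3. Without replicate 16 of the 15-month group, 7 members were called, all higher, beside 2593 of 18363 genes, and Col4a2 and Col15a1 were lost. With library totals as the only scaling, 14 members were called, all higher, and the calls over all genes split into 1768 higher and 755 lower against 1150 and 1326 with TMM factors. Cell type markers were also called higher in this comparison and none lower: 4 of 6 of endothelium, 3 of 5 of macrophages, 2 of 6 of pericytes, and 1 each of 7 of fibroblasts, of 5 of enteric glia and of 4 of mesothelium. None of those of smooth muscle, epithelium, adipocytes or cycling cells was called. With the smooth muscle and fibroblast scores as covariates, 9 members were called here but no longer all one way: Col4a2 and Col15a1 were lost, 7 stayed higher, and Col4a5 and Col11a2 were called lower, beside 1390 higher and 1744 lower of all 18325 genes. A marker score cannot separate the number of cells from the RNA per cell, and the part of any cell type in the result was not tested.

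Between 28 and 24 months most calls were in the other direction. Of 39 members, 8 were called, 1 higher and 7 lower, beside 11.7% of all genes tested, 5.66% higher and 6.01% lower. The lower ones were Col1a1, Col3a1, Col5a2, Col6a3, Col7a1, Col15a1 and Col26a1, and the higher one was Col13a1 (0.19 ± 0.07, edgeR adjusted p = 0.0718). Col5a2, a chain of collagen V, was 1.18-fold lower (edgeR adjusted p = 0.0583) and Col6a3 1.22-fold lower (edgeR adjusted p = 0.0591), each in 16 of 18 mice against the 24-month median. The calls of Col7a1 and Col13a1 were each lost in 3 alternatives. Of the cell type markers, 3 of 5 of cycling cells were called lower and none of the others was called, while the median log2 fold change of the 7 smooth muscle markers was -0.21. With the smooth muscle and fibroblast scores as covariates, 12 members were called, 3 higher and 9 lower, beside 1404 higher and 1460 lower of all 18325 genes. The part of any cell type was not tested. This comparison shares its 24-month mice with that of 24 against 15 months. The mean was highest at 24 months in 18 of the 39 tested members and lowest at 28 months in 15.

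The earlier steps held little. Between 9 and 3 months 2 members were called, Col6a5 and Col26a1, both higher, beside 8.69% of all genes tested (3.64% higher, 5.05% lower). Between 15 and 9 months no member was called in the main edgeR fit, beside 0.431% of all genes tested (0.251% higher, 0.18% lower). In that comparison 3 members had an unadjusted p below 0.05, and Col6a5 was called in 4 of 11 alternatives, which include DESeq2 and other edgeR fits. Over all ages together, 19 of 39 members were called beside 54.9% of all genes tested, and 4 departed from a straight line, Col6a5, Col13a1, Col15a1 and Col26a1, beside 16.2%. Neither share was above the background in this fit, but that depended on the setting. With the smooth muscle and fibroblast scores as covariates 28 members were called over all ages beside 10459 of 18325 genes, and 13 departed from a straight line beside 4355, both above it. Over all ages the share was also above it with the replicate number as a block (24 members beside 9506 genes), with library totals only (23 beside 10096), in DESeq2 (23 beside 10306), without the 2 mice least correlated with their age group (24 beside 9998 of 18360) and without a filter (17 of 44 beside 10366 of 37764). The share over all ages was not above the background with DESeq2 size factors (21 beside 10072) or without a preparation term (19 beside 9841). Nor was it with at least 10 counts in every mouse (19 of 33 beside 8973 of 15151) or without replicate 16 of 15 months (22 beside 10375 of 18363). Some shares above it, such as that of 23 members in DESeq2, lay close to it. Without a filter the departures, 3 of 44 beside 2241 of 37764, were also close to it, and that background takes in genes too low for the main fit.

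Most of the pairs of collagen genes examined went up and down together from mouse to mouse. After age and preparation were taken out, the log2 CPM of Col1a1 and Col1a2 correlated over the 83 mice with r = 0.973 (Spearman's rho 0.965), that of Col6a1 and Col6a2 with r = 0.974 (rho 0.971), that of Col4a1 and Col4a2 with r = 0.967 (rho 0.943) and that of Col1a1 and Col3a1 with r = 0.945 (rho 0.922). Col5a1 and Col5a2 had r = 0.907 (rho 0.915). Of the pairs from different classes, Col1a1 and Col4a1 had r = 0.911 (rho 0.894), Col1a1 and Col6a1 r = 0.913 (rho 0.888), Col1a1 and Col12a1 r = 0.772 (rho 0.744) and Col3a1 and Col14a1 r = 0.732 (rho 0.749). Among the head-to-head pairs the value was lower than for Col4a1 and Col4a2 in Col4a5 and Col4a6 (r = 0.728, rho 0.680) and in Col4a3 and Col4a4 (r = 0.489, rho 0.498), the latter at few counts. Without the 2 mice farthest from the median of the first gene these 11 values lay between 0.463 and 0.965. Of 12 pairs examined, 11 had an adjusted permutation p of 1.09e-05, from the smallest p that 100000 resamples can give, and Col1a1 and Col17a1 did not correlate detectably (r = -0.12, rho -0.14, permutation p = 0.281). Col17a1 had only 735 counts over the 83 mice, so counting noise could hide a correlation in this pair. All values come from the same libraries, so depth and tissue makeup are shared by both genes of a pair.

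**Figure D4:**
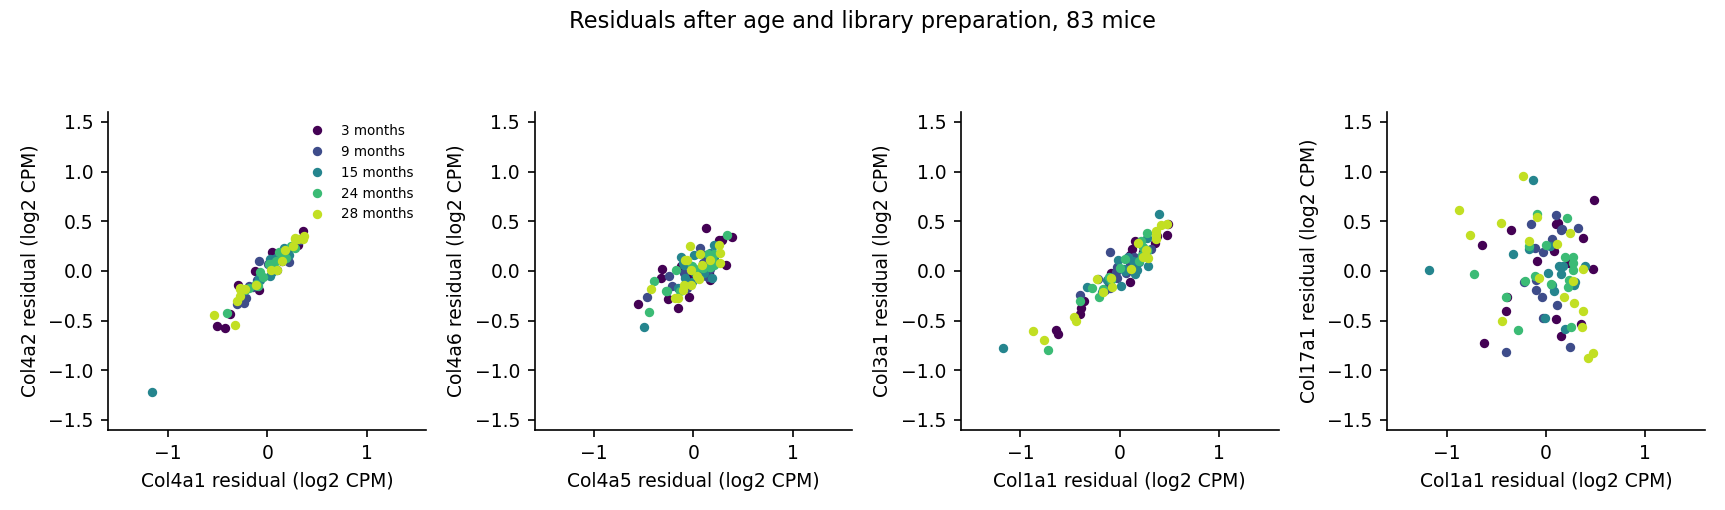
Residual log2 CPM of pairs of collagen genes in 83 mice, after age and library preparation were taken out, with the age of each mouse as colour. Col4a1 with Col4a2 (r = 0.967) and Col1a1 with Col3a1 (r = 0.945) lie along a line, Col4a5 with Col4a6 (r = 0.728) scatters more, and Col1a1 with Col17a1 (r = -0.12), the latter at few counts, forms a cloud. The mouse at the lower left of the first panel is replicate 16 of 15 months.

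Levels of cell type markers were read beside those of the members. The smooth muscle score (mean log2 CPM of 7 genes) averaged 8.39 ± 0.85 (SD, n = 16) over the 3-month mice, where the summed level ran from 849 to 5297 CPM, and 8.93 ± 0.24 (SD, n = 17) over the 24-month mice, where it ran from 3230 to 5395 CPM. At 28 months it averaged 8.72 ± 0.25 (SD, n = 18; summed level 2577 to 4827 CPM), and 0 of its 7 genes were called at 28 against 3 months. The score of fibroblast markers outside the matrix was 2.67 ± 0.21 at 3 months and 2.88 ± 0.31 at 28 months (summed level 120 to 177 and 118 to 191 CPM, 3 of 7 genes called higher). Scores at 28 months stood above 3 months by 0.33 for pericytes (5 of 6 genes higher), 0.14 for endothelium (4 of 6 higher), 0.24 for macrophages (4 of 5 higher) and 1.16 for mesothelium (4 of 4 higher), the last at a summed level of 1.29 to 13.7 CPM. The epithelial score differed by -0.08 (2 of 6 genes lower), that of cycling cells by -0.18 (4 of 5 lower), that of enteric glia by 0.10 (0 of 5 called) and that of adipocytes by 0.22 (1 of 5 higher). No marker was at 0 in all mice. With the smooth muscle and fibroblast scores as covariates, 25 members were called at 28 against 3 months, 8 higher and 17 lower, beside 4275 higher and 5032 lower of all 18325 genes tested. In that fit Col6a5, Col8a1, Col8a2, Col13a1, Col4a5, Col18a1, Col3a1 and Col1a1 kept their calls and directions. The log2 fold change moved from 0.36 to 0.13 for Col14a1, from 0.49 to 0.27 for Col8a2, from 0.32 to 0.18 for Col18a1, from -0.28 to -0.46 for Col1a1 and from -0.31 to -0.47 for Col3a1. The part of any cell type in these results was not tested.

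**Figure D5:**
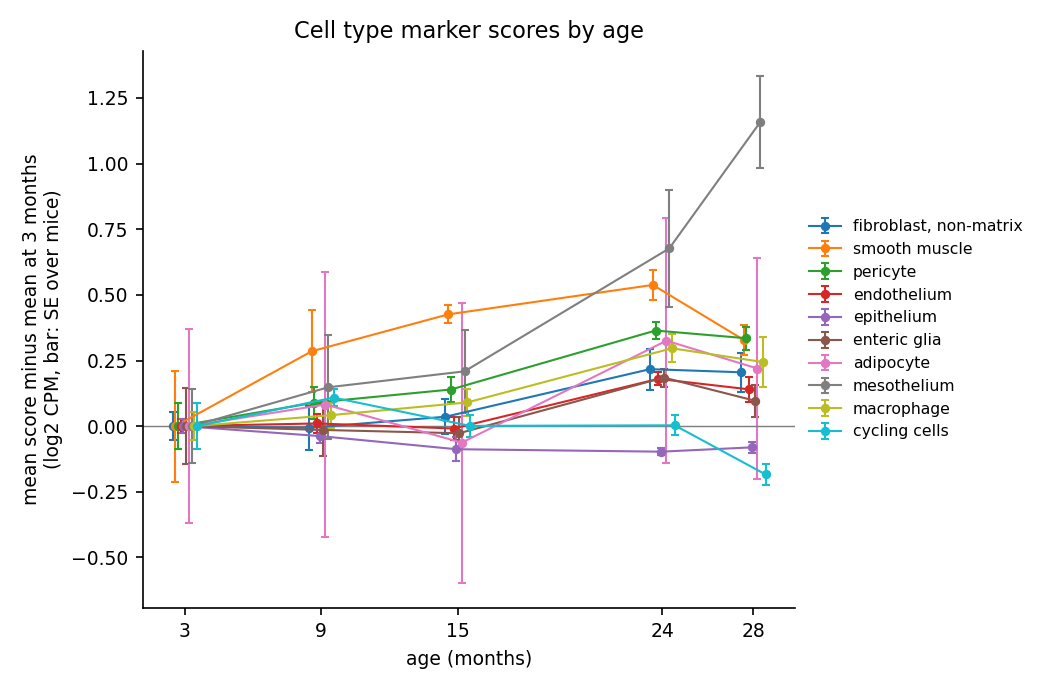
Mean marker score of each cell type at each age minus its mean at 3 months, on a log2 CPM scale, with bars of 1 SE over mice. The mesothelial score stands 1.16 above 3 months at 28 months, the smooth muscle score is highest at 24 months, and the epithelial score lies slightly below 0 at all later ages.

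Other genes of collagen biology were grouped in 8 lists. Of 20 genes of collagen folding and modification, 2 were higher and 7 lower at 28 than at 3 months, with a median log2 fold change of -0.02. Over all genes tested 23.5% were higher and 25.9% lower, 49.4% in all, and the share called in this list was not above that. P4ha1, a catalytic subunit of prolyl 4-hydroxylase, fell from 28.6 ± 5.87 (SD, n = 16) to 18.0 ± 2.68 CPM (SD, n = 18), a log2 fold change of -0.67 ± 0.09 (edgeR adjusted p = 2.09e-09). Serpinh1, the collagen chaperone HSP47, fell from 93.8 ± 15.5 to 65.6 ± 19.9 CPM (-0.51 ± 0.11, edgeR adjusted p = 0.000176). Tmem38b, an ion channel of the endoplasmic reticulum, and P3h3, a prolyl 3-hydroxylase relative, rose by 0.13 and 0.19. In procollagen export and propeptide cleavage, 4 of 10 tested genes were higher and 2 lower. Here the related N-propeptidases parted, with Adamts3 at -0.67 ± 0.12 (edgeR adjusted p = 5.01e-06) and Adamts14 at 0.45 ± 0.08 (edgeR adjusted p = 7.77e-06), while Pcolce2, an enhancer of C-propeptide cleavage, rose by 0.41 and Sec24d, a coat protein of export vesicles, fell by 0.17 on the log2 scale.

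The next lists hold genes that act on finished collagen, and their counts at 28 against 3 months stand beside the same 23.5% higher and 25.9% lower, 49.4% in all, over all genes tested. In crosslinking, 3 of 6 genes were higher and 1 lower: Lox, lysyl oxidase, rose from 6.49 ± 1.12 to 9.32 ± 1.87 CPM (0.53 ± 0.09, edgeR adjusted p = 1.45e-06), Loxl4 rose by 0.43, and Pxdn, which crosslinks collagen IV, fell by 0.26. In cleavage and uptake, 5 of 10 tested genes were higher and 1 lower. Among the higher were the protease Ctsk (0.55 ± 0.08, edgeR adjusted p = 1.13e-07) and the protease inhibitor Timp3 (0.49 ± 0.07, edgeR adjusted p = 3.11e-08). Pepd, which splits proline dipeptides, fell by 0.16. Of 8 collagen receptors, 2 were higher and 2 lower, a share at the background: Lair1, an inhibitory receptor of leukocytes, rose from 5.71 ± 1.27 to 9.68 ± 2.59 CPM (0.76 ± 0.10, edgeR adjusted p = 2.23e-09), Itga11 rose by 0.50, Itga10 fell by 0.51 and Ddr1 fell by 0.26. Of 12 fibril-binding proteoglycans and glycoproteins, 7 were higher, with Fmod at 0.81 and Thbs2 at 0.64, and 1, Sparc, was lower at -0.19.

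Of 15 partners of collagen in the basement membrane, 9 were higher and 0 lower, beside 23.5% higher and 25.9% lower over all genes tested, with the largest rises in the laminin chains Lamc3 (0.36 ± 0.09, edgeR adjusted p = 0.00122) and Lama5 (0.33 ± 0.08, edgeR adjusted p = 0.000411). In the same comparison 5 of 6 pericyte, 4 of 6 endothelial and 4 of 4 mesothelial markers were also called higher, and the part of these cells in the counts of all 8 lists was not tested. Of 11 genes of TGF-beta ligands and targets outside the matrix, 6 were higher, among them Ltbp2, itself a secreted glycoprotein of the matrix despite the name of the list, at 0.49, and 1, Skil, was lower at -0.18. Median log2 fold changes of these lists were 0.15 for export and cleavage, 0.17 for crosslinking, 0.13 for cleavage and uptake, 0.03 for receptors, 0.18 for fibril-binding proteins, 0.16 for basement membrane partners and 0.19 for TGF-beta genes, beside -0.01 over all genes tested. At 24 against 15 months the calls in these 8 lists were 1 higher and 1 lower in folding, 2 and 1 in export, 3 and 0 in crosslinking, 4 and 1 in cleavage and uptake, 2 and 0 in receptors, 5 and 0 in fibril-binding proteins, 6 and 0 in basement membrane partners and 4 and 0 in TGF-beta genes, beside 6.28% higher and 7.24% lower over all genes tested.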

How the data were processed

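Counts were deposited by the authors as integer totals of read pairs for each gene in each mouse, not normalized and not pooled. The submitters' processing notes name cutadapt 2.8, HISAT2 2.1.0, SAMtools 1.9 and featureCounts of Subread 2.0.1 on GRCm38.p6, and pairs were counted by strand on uniquely mapped reads. Multimapping pairs between close paralogues are therefore not in the counts.

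Genes were filtered with filterByExpr (18325 kept), scaled with TMM and fitted in edgeR 4.0.16 (R 4.3.3) with age and library preparation over all 83 mice. Calls used Benjamini-Hochberg adjusted p below 0.1 over all genes tested, and departure from a straight line used the terms of age above the linear one. TPM and gene positions came from merged exons of a GRCm38 annotation older than that of the authors, which holds 37652 of the 37764 genes. DESeq2 1.42.0 served as an alternative. Chain ratios were log2 ratios of counts plus 0.5, tested with two-sided permutations within preparations, and correlations used residual log2 CPM with a prior count of 2, both with 100000 resamples in Python 3.11.15 with scipy 1.17.1. Promoter sequences came from RefSeq.

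The members, classes and gene lists were chosen with earlier results of these data known. Members described in full were the 3 of each class with the smallest p over ages and the 6 with the highest mean TPM. Other lists name at most the 2 largest rises and 2 largest falls at 28 against 3 months. The values of 1 gene that this rule picks are not reported here. Col1a2, Col4a3, Col4a4, Col5a1, Col5a2 and Col6a3 were named for their chain pairs or after their values were seen, and the marker examples Epcam, Myh11 and Pdgfra after theirs. Each sample is a separate mouse, so the p-values measure the spread between mice.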

Additional observations from a re-analysis of the deposited data

How the results depend on the processing

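Of the 34 changes called among members described in full, 24 were called in the same direction under all 11 alternatives run (9 or 10 for genes without a DESeq2 adjusted p or under a stricter filter), and 10 lost the call in at least 1. Counting called and uncalled changes of these members, 1300 values under an alternative kept their side of the threshold, 31 gained a call and 26 lost one. The sign changed together with a call in 1, and uncalled values near 0, such as those of Col4a2 and Col6a2 at 28 against 3 months, also changed sign under some. At 24 against 15 months Col6a1 gained a call in 7 of 11 alternatives, Col22a1 in 5 of 10 and Col4a1 in 3 of 11, all higher at 24 months. Of the counts of called members under the alternatives, 67 lay within 1.5 times the reported count and 15 did not. At 24 against 15 months the count was 9, beside 2476 called of all 18325 genes, and the parentheses that follow give the same count over all genes. It was 4 (1380 genes) at an adjusted p below 0.05, 5 (1524 of 37764) without a filter on low counts, 14 (2523) with library totals only and 15 (3381) when only these ages were fitted. At 9 against 3 months the count of 2 (1593 genes) became 1 at an adjusted p below 0.05 (759), without a filter (882 of 37764), or with at least 10 counts in every mouse (1359 of 15151), and 4, 1 higher and 3 lower, with the smooth muscle and fibroblast scores as covariates (1565). At 15 against 9 months the count of 0 (79 genes) became 1 without a preparation term (89), with only these ages fitted (102), in DESeq2 (125), and without replicate 16 of 15 months (122 of 18363). At 28 against 24 months it fell from 8 (2139 genes) to 3 (1302) at an adjusted p below 0.05. The 4 departures from a straight line (2969 genes) became 2 at an adjusted p below 0.05 (1926) and 13 with the score covariates (4355). The value of Col5a3 at 28 against 3 months, 0.05, reversed to -0.17 with those covariates (adjusted p = 0.0261; over its 11 alternatives adjusted p ran from 0.0261 to 0.811). Leaving out the 2 mice least correlated with their age group, an alternative chosen after seeing the data as was that without replicate 16, gave 13 calls at 24 against 15 months (2913 of 18360 genes) and 18 at 28 against 3 months (8833). Without adjustment for age and preparation, the correlation was 0.954 for Col6a1 and Col6a2, 0.801 for Col1a1 and Col6a1 and 0.497 for Col3a1 and Col14a1, against 0.974, 0.913 and 0.732. All 12 chain ratios kept their side of the threshold with a pseudocount of 5. Over the alternatives at 28 against 3 months the log2 fold change ran from 0.13 to 0.40 for Col14a1, 0.27 to 0.54 for Col8a2, 0.18 to 0.36 for Col18a1, -0.46 to -0.24 for Col1a1 and -0.47 to -0.27 for Col3a1. For the reversed value and the other changed counts the cause was not tested.

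The ages share replicate numbers, which only name the mice: deviations of mice with the same number correlated by 0.00211 on average over 161 pairs, against 7.87e-05 for different numbers. With the replicate number as a block, 18 members were called at 28 against 3 months, 11 at 24 against 15, 2 at 9 against 3, 8 at 28 against 24, 24 over all ages and 4 as departing from a straight line. Over all 18325 genes that fit called 8626, 2131, 1507, 1780, 9506 and 2650 in the same order. Levels under 1 TPM, such as Col17a1, Col22a1 and Col26a1, rest on few counts.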
